A study of Mus musculus with 12 samples.

Results

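The SMAD family of the mouse was examined in tumor organoids in which SMAD4 was put back. The family was taken as the 8 genes Smad1, Smad2, Smad3, Smad4, Smad5, Smad6, Smad7 and Smad9, out of 24906 genes in the expression tables, and all 8 were listed there. The question was whether the receptor and inhibitory SMADs follow the restored Smad4. RNA-Seq came from 12 libraries of organoids, which are cell clusters grown in culture, derived from small intestinal tumors. Every library was labelled with the genotype Smad4KO;BRAFV600E/+;pINDUCER-SMAD4, so by label the controls too lacked Smad4, carried the activated BRAF allele and held pINDUCER-SMAD4, a lentiviral construct that makes SMAD4 when doxycycline (dox) is added. For 1 control, the mock library described next, the plasmid it carried is not known.

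In BME, a basement membrane extract for 3D growth, there were 2 libraries with 4 µg/mL dox for 48 h (lines 700 and 889). There were also 3 untreated libraries (lines 682, 700 and 889) and 1 library of line 682 labelled 4 µg/mL dox with the word Mock, at 48 h too. The title and genotype of the mock library read as those of an induced library, while the study names a mock plasmid and counts 4 vehicle libraries, so it was kept as a control. On tissue culture plastic there were 3 libraries with 4 µg/mL dox for 48 h and 3 untreated libraries (lines 560, 700 and 889 each). The deletion was driven by Villin-CreERT2, which is active in the intestinal epithelium, and the dox and untreated libraries of a line are cultures of the same organoid line. Lines 700 and 889 appear in both environments, so the 5 dox pairs come from 3 lines.

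SMADs carry signals of the TGFβ superfamily from the cell surface to the nucleus. Ligand-bound receptors phosphorylate the receptor SMADs, Smad2 and Smad3 downstream of TGFβ and activin and Smad1, Smad5 and Smad9 downstream of BMP, and these bind the common partner Smad4 to act on genes. The inhibitory SMADs, Smad6 and Smad7, block receptors and SMAD complexes and are themselves transcribed in response to the pathway. In the intestine, BMP and TGFβ signals restrain growth and favor differentiation, and SMAD4 is often lost in colorectal cancer.

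The family is spread over 5 chromosomes (NCBIM37, the mm9 build of the tables). Smad2 (76401234 to 76465385, plus strand), Smad7 (75527183 to 75555589, plus strand) and Smad4 lie on chromosome 18, and Smad3 (63494574 to 63605801, minus strand) and Smad6 (63800953 to 63869866, minus strand) on chromosome 9. Smad1 lies on chromosome 8 (81862294 to 81923417, minus strand), Smad5 on chromosome 13 (56804371 to 56843738, plus strand) and Smad9 on chromosome 3 (54559504 to 54605179, plus strand). No annotated gene overlaps a member.

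Between 14416840 and 16334352 reads lay behind a library in BME and between 16889267 and 20922601 on plastic, as rebuilt from the deposited values. The label of an intestinal culture was checked with 10 epithelial markers. All 10 were expressed in BME and 9 of 10 on plastic at a mean of at least 0.5 FPKM (fragments counted per kilobase of a transcript, adjusted for library size), whereas 10 fibroblast markers summed to at most 6.03 FPKM and 6 endothelial markers to at most 4.14 FPKM in any library. The immune markers, of which Cd68 was the highest, summed to at most 39.3 FPKM. In BME the epithelial sum was higher with dox, at 9408 to 11110 FPKM, than in the controls, at 5632 to 6704 FPKM, and on plastic the groups overlapped. Its part in the SMAD results was not tested.

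The targeted gene itself, Smad4 (chromosome 18, 73798663 to 73863434, minus strand, NCBIM37), was higher with dox in 5 of 5 pairs. In BME it measured 8.88, 6.53 and 6.23 FPKM in untreated lines 682, 700 and 889, 10.3 FPKM in the mock library, and 17.2 and 27.3 FPKM with dox in lines 700 and 889. On plastic it measured 1.54, 2.99 and 4.76 FPKM in untreated lines 560, 700 and 889, and 73.6, 18.1 and 48.9 FPKM with dox. Every dox library stood above every control library, but the step was uneven, from 2.64-fold in line 700 in BME to 47.8-fold in line 560 on plastic. Smad4 was not at 0 without dox, and neither the deleted stretch nor the species of the construct's SMAD4 sequence is given in the sources used here, so how much of the construct these levels capture cannot be told. In bulk RNA, fewer cells that express a gene and less RNA per cell cannot be told apart.

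**Figure D1:**
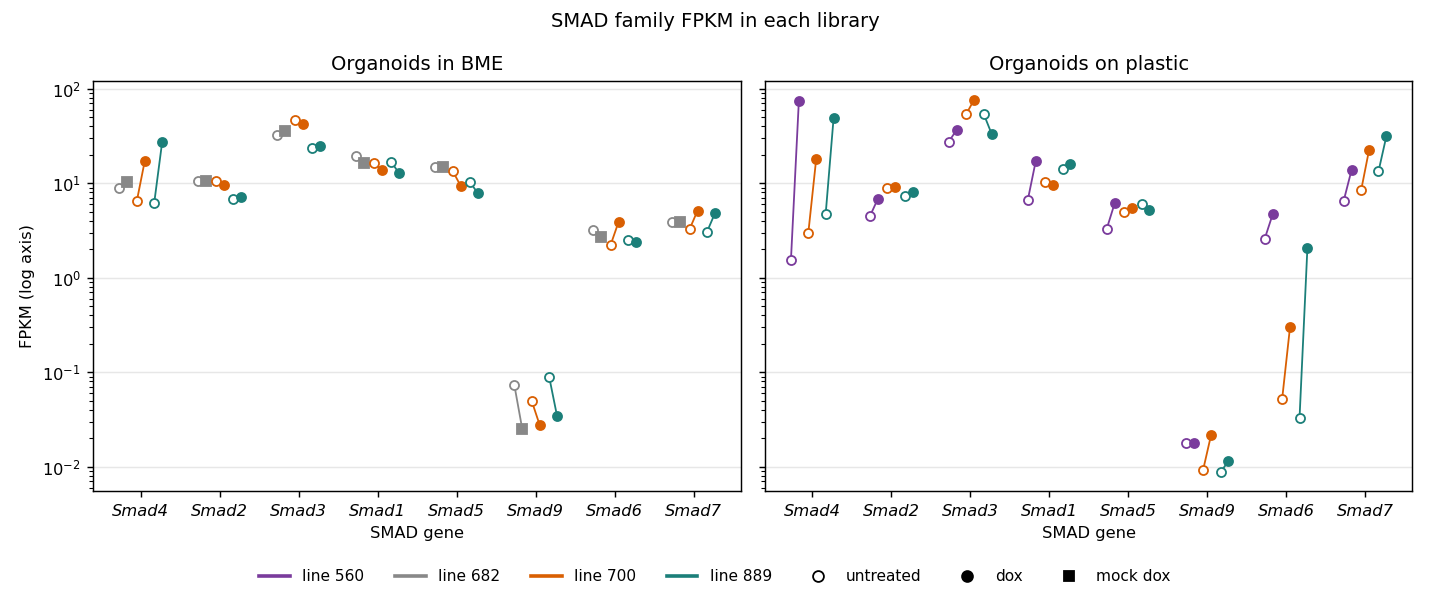
FPKM (log axis) of the 8 SMAD genes in each library, BME at left and plastic at right, with a line joining the untreated (open) and dox (filled) or mock (square) library of an organoid line. Smad4 and Smad7 slope upward in all 5 dox pairs, Smad6 splits between lines on plastic, and Smad9 stays under 0.1 FPKM throughout.

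Differences below are given on the log2(FPKM + 1) scale, which understates those of low genes, and were tested with limma over all genes with a mean of at least 0.5 FPKM in a table. Genes with an adjusted p under 0.05 that differed by more than 1 in either direction were called. Of the 8 members, 7 passed this filter in each environment and Smad9 passed in neither. No member was called in BME, where 0.0231% of the 12996 genes tested were called, and no member was called on plastic, where 0.0324% of 12333 were. At an unadjusted limma p under 0.05, 4 of 7 members stood out in BME, beside 4.09% of all genes. Smad4 and Smad7 were higher with dox, beside 2.62% of genes, and Smad1 and Smad5 were lower, beside 1.47%. On plastic 2 of 7 stood out, beside 8.29% of genes. These were again Smad4 and Smad7, both higher, where 4.56% of genes were higher and 3.73% lower. When 1 library was left out in turn, Smad1 and Smad7 in BME were no longer under 0.05 in any of the 6 fits (unadjusted limma p 0.058 to 0.138 for Smad1 and 0.056 to 0.139 for Smad7). Smad5 was not without the mock library, untreated lines 682 or 700, or the dox library of line 889. On plastic, Smad7 was not without untreated line 560 or the dox library of line 889. Smad4 stayed under 0.05 in all 6 such fits of each environment. Smad4 differed by 1.36 in BME (SE 0.27, limma adjusted p = 0.959) and by 3.42 on plastic (SE 0.55, limma adjusted p = 0.162). The plastic value passed only when the dox library of line 700, the least induced there, was left out, at 3.98 with a limma adjusted p of 0.0326 (range over the alternatives 0.0326 to 0.672).

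Smad7, the inhibitory SMAD that acts on both TGFβ and BMP receptors, was the member that most closely accompanied Smad4 in direction. In BME it measured 3.86, 3.29 and 3.07 FPKM in untreated lines 682, 700 and 889, 3.86 FPKM in the mock library, and 5.15 and 4.82 FPKM with dox in lines 700 and 889. On plastic it measured 6.56, 8.42 and 13.4 FPKM in untreated lines 560, 700 and 889, and 13.9, 22.4 and 31.6 FPKM with dox. Every dox library stood above every control library in both environments. Across all genes tested, 6.33% had dox libraries above every control in BME and 7.87% did on plastic. In BME the mean was 4.98 ± 0.232 FPKM in the dox libraries against 3.52 ± 0.401 FPKM in the controls (SD, n = 2 and 4), and on plastic it was 22.6 ± 8.82 against 9.45 ± 3.52 FPKM (SD, n = 3 each). Exact two-sided permutation tests, which exchanged libraries without regard to line, gave p = 0.133 in BME and p = 0.1 on plastic. Each is the smallest p that these group sizes allow without pairing.

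The Smad7 step was also even between lines. Within pairs it was 0.52 and 0.51 in lines 700 and 889 in BME, and 0.98, 1.31 and 1.18 in lines 560, 700 and 889 on plastic. The 1.57-fold step was the same in both BME pairs, although Smad4 stepped 2.64-fold in one and 4.38-fold in the other, and on plastic Smad7 stepped least (2.12-fold) in line 560, where Smad4 stepped most. The limma difference was 0.41 in BME (SE 0.16, adjusted p = 0.959) and 1.16 on plastic (SE 0.37, adjusted p = 0.512). With the organoid line as a block, the BME difference was 0.52 (SE 0.13, limma adjusted p = 0.671, unadjusted p = 0.0115). The unadjusted limma p in BME was 0.0430 with a pseudocount of 0.1 and 0.0285 with limma-voom. It was 0.102 with TPM scaling, 0.0589 with upper-quartile scaling, 0.0789 with no filter and 0.0882 with the mock library counted with dox. On plastic the blocked SE was 0.19 and the limma adjusted p 0.148, still short of the threshold. The difference between environments, 0.75 (SE 0.43, limma adjusted p = 1.00), did not pass either, and it was 0.48 without the plastic dox library of line 889.

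Smad6, the inhibitory SMAD that acts mainly on BMP signals, followed less regularly. In BME it measured 3.24, 2.24 and 2.49 FPKM in untreated lines 682, 700 and 889, 2.69 FPKM in the mock library, and 3.90 and 2.39 FPKM with dox in lines 700 and 889, so the groups overlapped. On plastic it measured 2.60, 0.0521 and 0.0326 FPKM in untreated lines 560, 700 and 889, and 4.69, 0.302 and 2.08 FPKM with dox. Smad6 was thus nearly silent in untreated lines 700 and 889 on plastic, which rested on 3 and 2 reads, and was higher with dox in all 3 plastic pairs. The dox to untreated ratio there was 1.81 in line 560 (95% exact conditional interval of the rebuilt reads 1.48 to 2.21), 5.80 in line 700 (1.64 to 31.2) and 63.9 in line 889 (17.2 to 535), intervals that cover counting error only. As line 560 without dox stood above lines 700 and 889 with or without it, the plastic groups overlapped, and the limma difference of 0.85 (SE 0.69, adjusted p = 0.811) was not called. With the organoid line as a block the SE was 0.30 and the adjusted p 0.337, and Smad6 then stood at an unadjusted limma p of 0.0344, beside 13.5% of all genes under 0.05 in that fit. The difference was 2.09 with a pseudocount of 0.1 and 2.95 with limma-voom on rebuilt counts, and it was 0.35 without the dox library of line 560, 0.54 and 0.56 without untreated lines 889 and 700, 1.41 without the dox library of line 700 and 1.45 without untreated line 560, none of them called.

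The promoter of Smad6 is printed because it holds the palindromic element GTCTAGAC, which SMAD3 and SMAD4 are known to bind, and that of Smad1 because it holds no SMAD box (GTCT or its complement AGAC). RefSeq windows from 250 bases before to 50 after a start site (GRCm38.p6, each matched exactly once to NCBIM37) were at hand for 5 of 8 members (Smad1, Smad3, Smad5, Smad6 and Smad9) in 7 windows. Smad2, Smad4 and Smad7 are given by name only. Windows are given 5′ to 3′ on the gene's strand, chr9:63869817-63870116 (minus strand) for Smad6 and chr8:81923278-81923577 (minus strand) for Smad1, with the palindrome in capitals.
Smad6: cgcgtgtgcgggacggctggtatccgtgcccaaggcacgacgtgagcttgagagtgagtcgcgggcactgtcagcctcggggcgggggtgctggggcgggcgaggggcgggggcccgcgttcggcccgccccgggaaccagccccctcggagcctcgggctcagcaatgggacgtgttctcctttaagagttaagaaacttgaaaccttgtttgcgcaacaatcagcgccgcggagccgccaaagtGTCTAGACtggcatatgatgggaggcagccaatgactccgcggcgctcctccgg
Smad1: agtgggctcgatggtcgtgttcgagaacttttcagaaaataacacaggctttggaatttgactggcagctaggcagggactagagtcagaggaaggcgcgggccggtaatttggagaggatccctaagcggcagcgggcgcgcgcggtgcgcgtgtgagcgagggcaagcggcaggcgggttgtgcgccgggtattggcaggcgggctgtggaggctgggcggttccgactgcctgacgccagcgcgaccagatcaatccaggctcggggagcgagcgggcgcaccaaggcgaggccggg

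The capitals begin at position -4 from the annotated Smad6 start site. Searched on both strands, GTCTAGAC lay in 1 of the 7 SMAD windows and in 70 of 32851 promoter windows (0.213%). It joins both forms of the SMAD box, GTCT and AGAC, so it counts as a pair of boxes. The box lay in 88.0% of all windows, and the SMAD windows held 0 to 2 boxes each. The GC element GGCGCC lay in 11.9% of all windows and in windows of Smad5 and Smad9. These are matches of letters and do not show binding.

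The BMP receptor SMADs did not follow Smad4 upward in BME. Smad1 measured 19.3, 16.6 and 16.9 FPKM in untreated lines 682, 700 and 889, 16.6 FPKM in the mock library, and 13.8 and 12.8 FPKM with dox in lines 700 and 889. Smad5 measured 14.9, 13.5 and 10.2 FPKM in the same untreated lines, 14.9 FPKM in the mock library, and 9.37 and 7.80 FPKM with dox. For both genes each dox library lay below every control, as in 5.83% of all genes. The limma difference was -0.36 for Smad1 (SE 0.14, adjusted p = 0.959) and -0.58 for Smad5 (SE 0.20, adjusted p = 0.959), with 95% intervals of -0.68 to -0.03 and -1.05 to -0.10. Without the mock library the differences were -0.38 and -0.52 (unadjusted limma p 0.0621 and 0.0619). With it counted among the dox libraries both were -0.28 (unadjusted limma p 0.117 and 0.326). With the organoid line as a block they were -0.31 and -0.42, and Smad1 was then not under an unadjusted p of 0.05. Exact permutation tests gave p = 0.133 for each.

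On plastic the same genes had positive mean differences that rested on line 560. Smad1 measured 6.71, 10.4 and 14.3 FPKM in untreated lines 560, 700 and 889, and 17.2, 9.53 and 16.0 FPKM with dox. Smad5 measured 3.32, 4.96 and 6.07 FPKM untreated and 6.17, 5.41 and 5.20 FPKM with dox. The groups overlapped for both. Line 560 had pair differences of 1.24 for Smad1 and 0.73 for Smad5, whereas lines 700 and 889 lay between -0.19 and 0.15. The environments differed by 0.79 for Smad5 (SE 0.31, 95% interval 0.11 to 1.48, limma adjusted p = 1.00) and by 0.78 for Smad1 (SE 0.39, limma adjusted p = 1.00). With lines 700 and 889 alone these were 0.38 and 0.33. The Smad4 difference itself was larger on plastic by 2.05 (SE 0.68, limma adjusted p = 1.00), and by 1.07 with lines 700 and 889 alone. No gene was called for a difference between environments (0% of 11977). At an unadjusted p under 0.05, where 2.53% of genes stood, Smad4 and Smad5 were more positive on plastic, beside 1.3% of genes, and no member was more negative, beside 1.23%. Smad5 was no longer under 0.05 with the organoid line as a block, with TPM scaling, with the mock library left out or with it counted among the dox libraries (a difference of 0.50), and neither gene was with lines 700 and 889 alone. Among fits that left out 1 library, Smad4 was not without the BME dox library of line 700, and Smad5 was not without the mock library, untreated line 682 or the dox library of line 889 in BME, or the dox library of line 560 on plastic.

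Smad9, the other BMP receptor SMAD, was barely detected. It lay between 0.0251 and 0.0900 FPKM in BME, on 2 to 8 reads, and between 0.00873 and 0.0216 FPKM on plastic, on 1 to 2 reads. No difference was detectable at this depth.

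For the TGFβ receptor SMADs, the dox and control libraries overlapped in both environments. Smad2 measured 10.5, 10.5 and 6.85 FPKM in untreated lines 682, 700 and 889, 10.7 FPKM in the mock library, and 9.53 and 7.24 FPKM with dox in BME. On plastic it measured 4.48, 8.83 and 7.26 FPKM in untreated lines 560, 700 and 889, and 6.83, 9.04 and 8.04 FPKM with dox. The limma difference was -0.17 in BME (95% interval -0.72 to 0.38, adjusted p = 0.963) and 0.23 on plastic (95% interval -0.42 to 0.87, adjusted p = 0.882).

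Smad3 was the most abundant member without dox in both environments. It measured 32.7, 46.6 and 23.7 FPKM in untreated lines 682, 700 and 889, 35.8 FPKM in the mock library, and 42.4 and 24.9 FPKM with dox in BME. On plastic it measured 27.6, 54.1 and 54.5 FPKM in untreated lines 560, 700 and 889, and 37.0, 76.8 and 33.6 FPKM with dox. The difference was thus positive in lines 560 and 700 and negative in line 889. Smad3 levels followed the line more than the treatment in BME, and the limma differences of -0.05 in BME (95% interval -0.82 to 0.71, adjusted p = 0.993) and 0.07 on plastic (95% interval -0.91 to 1.05, adjusted p = 0.981) were small beside their intervals. With the organoid line as a block the BME difference was -0.03 with a smaller SE of 0.12.

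**Figure D2:**
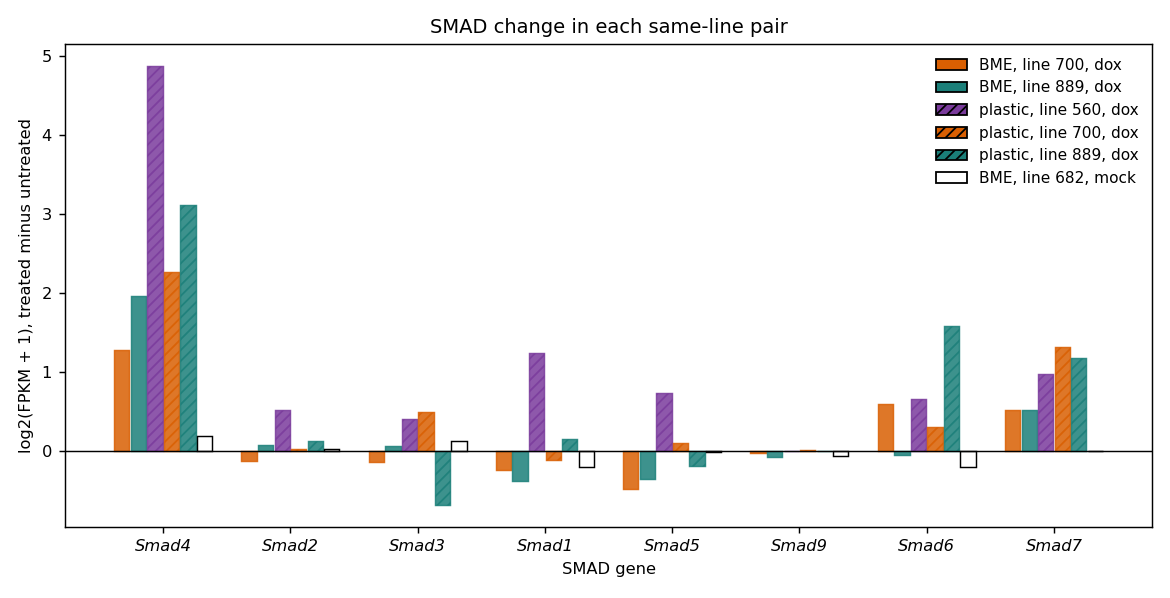
Difference in log2(FPKM + 1), treated minus untreated, of each SMAD gene in the 5 dox pairs (hatched on plastic) and the mock pair (open bars). Smad4 and Smad7 are positive in all 5 dox pairs, whereas the mock pair is at 0.19 for Smad4 and near 0 for Smad7.

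Compared pair by pair, 2 members (Smad4 and Smad7) were higher with dox in all 5 pairs, beside 8.7% of the 11977 genes kept in both tables, and none was lower in all 5, beside 8.06%. Smad6 and Smad2 were higher in 4 of 5 pairs, Smad3 in 3, and Smad1, Smad5 and Smad9 in 2. In plastic line 560 all 7 members above the filter were higher, by 0.41 to 4.88. That pair had the widest spread of all genes, with a median absolute difference of 0.46 against 0.16 to 0.33 in the other dox pairs. In the mock pair the 7 members lay between -0.21 (Smad1) and 0.19 (Smad4), where 90% of all genes differed by at most 0.49 in size.

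**Figure D3:**
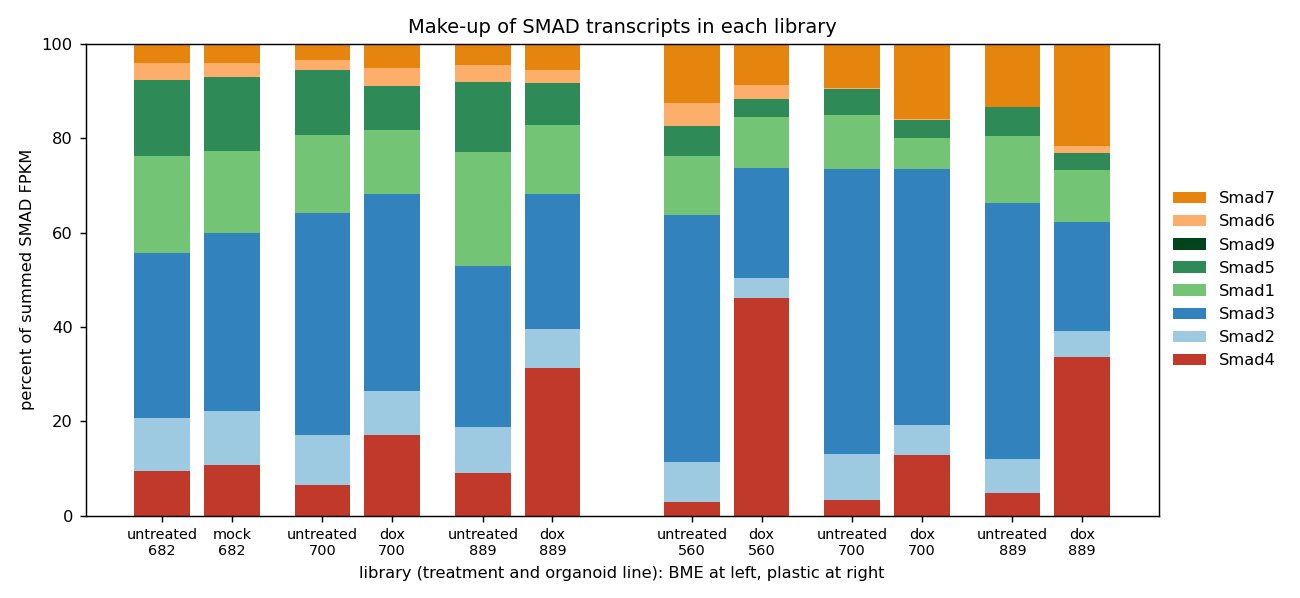
Share of each SMAD gene in the summed FPKM of the 8 members, in percent, for each library named by treatment and organoid line, BME at left and plastic at right. The Smad4 share runs from 2.91% to 10.8% without induction and from 12.8% to 46.2% with dox.

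The make-up of the family was also compared within each library, which does not depend on scaling between libraries. Smad4 took 9.50%, 6.58% and 8.96% of the summed SMAD FPKM in untreated lines 682, 700 and 889 in BME, 10.8% in the mock library, and 17.0% and 31.3% with dox in lines 700 and 889. On plastic it took 2.91%, 3.33% and 4.74% in untreated lines 560, 700 and 889, and 46.2%, 12.8% and 33.6% with dox. The groups did not overlap, with means of 24.1 ± 10.1% against 8.97 ± 1.78% in BME (SD, n = 2 and 4, exact permutation p = 0.133) and 30.9 ± 16.9% against 3.66 ± 0.959% on plastic (SD, n = 3 each, exact permutation p = 0.1). The BME difference of 15.2 percentage points was 8.03 without the dox library of line 889 and 22.3 without that of line 700.

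Summed over the 5 receptor SMADs, the level was 52.7 to 75.1 FPKM with dox and 57.8 to 87.2 FPKM without in BME, and 62.9 to 100.8 against 42.2 to 82.1 FPKM on plastic, so the groups overlapped in both (exact permutation p = 0.267 and 0.6). Smad4 per receptor SMAD, a ratio of FPKM, was 0.0749 to 0.132 in BME controls and 0.229 and 0.517 with dox. On plastic it was 0.0365 to 0.0579 without dox and 1.10, 0.180 and 0.777 with dox in lines 560, 700 and 889. Only the plastic dox library of line 560 held more Smad4 than receptor SMAD transcripts.

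The inhibitory SMADs, taken as Smad6 plus Smad7 per receptor SMAD, were higher with dox in each environment when set against receptor SMADs. The ratio was 0.120 and 0.137 with dox in lines 700 and 889 and 0.0634 to 0.0964 in controls in BME (exact permutation p = 0.133). On plastic it was 0.277, 0.225 and 0.535 with dox in lines 560, 700 and 889 and 0.217, 0.108 and 0.163 without (exact permutation p = 0.1). The groups were separate in both, though by a narrow margin on plastic, and Smad7 supplied most of the sum there. As a share of the whole family, Smad6 plus Smad7 did not separate on plastic, at 11.7% to 23.1% with dox and 9.44% to 17.3% without (exact permutation p = 0.5), and the share was lower with dox in line 560. The BMP receptor SMADs took a lower share with dox, 23.3 ± 0.528% against 34.8 ± 3.85% in BME and 13.3 ± 2.35% against 18.8 ± 1.62% on plastic, with the same exact permutation p of 0.133 and 0.1. The TGFβ receptor SMADs did so on plastic as well, at 38.9 ± 18.8% against 64.1 ± 5.19% (exact permutation p = 0.1), and overlapped in BME, at 44.0 ± 10.2% against 49.2 ± 5.93% (exact permutation p = 0.533). Since the shares sum to a fixed total, a larger Smad4 share by itself lowers the others.

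By level, the control order in BME was Smad3, Smad1, Smad5, Smad2, Smad4, Smad7, Smad6 and Smad9, and the ranges of Smad5 and Smad2, Smad2 and Smad4, and Smad7 and Smad6 overlapped. On plastic the control order was Smad3, Smad1, Smad7, Smad2, Smad5, Smad4, Smad6 and Smad9, where each neighbouring pair between Smad1 and Smad6 overlapped. With dox, Smad4 had the next highest mean after Smad3 in both environments, but their ranges overlapped, and Smad3 was the higher in only 1 of 2 dox libraries in BME and 1 of 3 on plastic. On plastic with dox, Smad7 came next by mean at 22.6 FPKM, above Smad1 in 2 of 3 libraries, with overlapping ranges. The tables were normalized apart, so levels were not tested between environments.

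To place the members among all genes, genes were ranked by the root mean square difference of their log2(FPKM + 1) differences from those of a member over the 6 same-line pairs, the mock pair included. Among 11970 genes, Smad7 was rank 238 and Smad6 rank 568 in nearness to Smad4, at differences of 1.94 and 2.18. The receptor SMADs lay between rank 1772 (Smad1) and rank 5006 (Smad3). Ranked the other way, Smad4 was among the farthest genes, at rank 11778 from Smad7 and rank 11876 from Smad6. The 5 genes nearest to Smad4 were Mcpt2 (0.64), Cpe (0.88), Prl2c2 (0.92), Pax9 (0.97) and Antxr2 (1.00). Nearest to Smad7 were Eif4e3 (0.13), Casp1 (0.15), Actg1 (0.18), Ndfip2 (0.21) and Lcp1 (0.21), and nearest to Smad6 were Pdlim1 (0.17), 2610318M16Rik (0.20), Nfkbia (0.22), Sfn (0.23) and Plekho2 (0.24). Smad6 was rank 443 in nearness to Smad7, at a difference of 0.52. These distances describe 6 pairs that share lines, and carry no test.

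The rest of the pathway was read from 5 lists with 133 genes outside the family. No gene of the lists was called, of 85 tested in BME and 88 on plastic. Of 82 measured in both tables, 16 (19.5%) were higher with dox in all 5 pairs and 4 (4.88%) were lower, beside 8.7% and 8.06% of all genes. The median limma difference over the lists was 0.04 in BME and 0.19 on plastic, against -0.0057 and 0.0088 over all genes. Taken by role, 3 of 11 ligands, 1 of 9 receptors, 2 of 7 extracellular antagonists, 3 of 36 SMAD regulators and 8 of 23 targets were higher in all 5 pairs, with Pmepa1 in both of the last lists. Lower in all 5 pairs were 1 ligand, 1 SMAD regulator and 2 targets.

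Among ligands, Tgfb1 was higher with dox in BME, at 39.3 and 43.2 FPKM against 21.5 to 34.9 FPKM in controls, and on plastic, at 76.1 to 239 FPKM against 31.0 to 54.4 FPKM. Its difference in the mock pair was 0.37, above the 0.17 of the BME dox pair of line 700. Bmp1, a protease that frees BMP ligands from their antagonist chordin, was also higher, by 0.53 to 1.61 within dox pairs, beside 0.44 in the mock pair. Inha, the inhibin subunit that opposes activin, was lower in all 5 pairs, by values between -1.52 and -0.15. Of the 9 receptors measured in both tables, Bmpr2, the type II BMP receptor, was the one higher in all 5 pairs, by 0.05 and 0.18 in BME and 0.44 to 1.82 on plastic, beside 0.27 in the mock pair. Tgfbr3 and Acvr1c, each below the filter in 1 table, were also positive in all 5 pairs, but are not in this count. They are named here after their values were seen, and Tgfbr3 also differed by 0.59 in the mock pair. The antagonist Fst (follistatin, which binds activin) was higher by 0.20 to 1.88 and Ltbp3, which holds latent TGFβ, by 0.02 to 0.45. The mock pair differed by 0.46 for Fst and 0.32 for Ltbp3, within the ranges of the dox pairs.

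Among genes that act on SMADs, Pmepa1, a membrane protein that binds and sequesters receptor SMADs, was higher by 0.07 to 1.34, beside 0.09 in the mock pair, and Runx2, a transcription factor that partners with them, by 0.18 to 0.86. The Runx2 difference in the mock pair was larger, at 1.03. Ctdsp2, a phosphatase that acts on SMADs, was lower by values between -0.55 and -0.12, and was also lower in the mock pair, at -0.31.

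Among the 12 pathway genes named by rule, the targets Id3, Id1 and Cdkn1a had the largest mean differences over the dox pairs. Id3, a BMP-induced inhibitor of differentiation factors, measured 30.8 and 22.7 FPKM with dox in lines 700 and 889 in BME against 0 to 1.94 FPKM in controls. On plastic it measured 43.0, 7.67 and 56.3 FPKM with dox in lines 560, 700 and 889 against 2.71, 0.248 and 0.409 FPKM. Its limma difference was 4.09 in BME (SE 0.43, adjusted p = 0.157) and 3.90 on plastic (SE 0.79, adjusted p = 0.281), and it was called on plastic only without the dox library of line 700. Id1 was higher by 1.76 to 3.02 within dox pairs and was at -0.46 in the mock pair. Cdkn1a, a cell cycle inhibitor, was higher by 1.33 to 2.48 within dox pairs, beside 0.86 in the mock pair. The targets lower in all 5 pairs, named after their values were seen, were Cdkn2b, another cell cycle inhibitor, by a mean of -0.61, and Myc, a growth-promoting transcription factor, by a mean of -0.29. In the mock pair Cdkn2b was at -0.22 and Myc at -0.28. Smad6 and Smad7 belong to the same class of pathway targets, and their within-pair differences of -0.04 to 1.58 and 0.51 to 1.31 were smaller than those of Id1 and Id3 in each dox pair on the log2(FPKM + 1) scale, which shrinks the step of a gene as low as Smad6 was in untreated lines 700 and 889 on plastic.

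**Figure D4:**
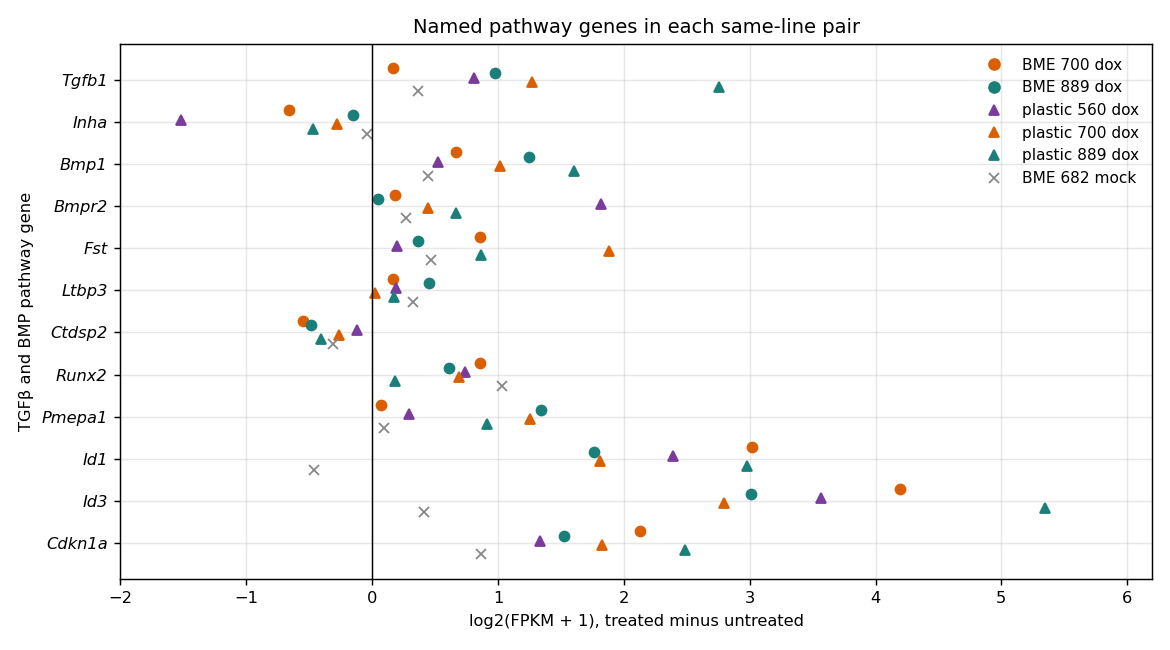
Difference in log2(FPKM + 1), treated minus untreated, of 12 pathway genes named by rule, in the 5 dox pairs (circles in BME, triangles on plastic) and the mock pair (crosses). Inha and Ctdsp2 lie left of 0 in all dox pairs, and the others lie right of it, Id3 farthest with 2.80 to 5.35.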

How the data were processed

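Organoid RNA was sequenced per the labels and quantified by the authors with kallisto and DESeq2 against mm9 (tools and build named in the submitters' processing notes, versions and annotation not given in the sources used here). The deposited FPKM values came as 1 table per environment, each normalized on its own 6 libraries, so levels were not tested between tables. The values were not scaled by total reads alone. The factor that gave whole reads was 0.8795 for the BME dox library of line 700, with 14828507 rebuilt reads. It was 0.97 for the mock library, with 14416840. The median log2(FPKM + 1) differed between dox and control by -0.0075 in BME and 0.046 on plastic. With TPM scaling it differed by -0.082 and 0.049. Whether all differences in RNA composition were removed was not tested. The deposited tables of the authors' comparisons hold a mean normalized count (a signal over libraries), log2 fold changes, standard errors, scores and p-values, and of these only the mean normalized count was used, to rebuild reads. With a tolerance of 0.05 reads, between 89.3% and 91.5% of each library's low values were whole reads.

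Values were analysed as log2(FPKM + 1). Genes with a mean of at least 0.5 FPKM over the 6 libraries of a table were compared with limma 3.58.1 (lmFit and trended eBayes) under R 4.3.3. Tests were two-sided and unblocked, since the study's methods mention no block, with Benjamini-Hochberg adjustment over all genes tested. The interaction of dox with environment was fitted over 11977 genes. Exact permutation tests were two-sided (scipy 1.17.1) and ignored the pairing of libraries by line. The script for limma was checked on simulated data. The lines pair the samples, since equal numbers mark the same organoid line. Over genes, deviations from the group means correlated at 0.46, 0.61 and 0.25 in the 3 plastic pairs and at 0.70 and 0.68 in BME.

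The members and lists were chosen with earlier results of these data known. Pathway genes were named if called, or among the 3 largest mean differences of a list with the same direction in all 5 dox pairs, and the 5 nearest genes of Smad4, Smad6 and Smad7 were named. Alternatives were a pseudocount of 0.1, no filter, the line as a block, TPM and upper-quartile scaling, limma-voom on rebuilt counts, the mock library left out or counted with dox, lines 700 and 889 alone, and leaving out each library. Coordinates and windows are of NCBIM37 (mm9) and RefSeq. Protein sequences were not used here. The replicates of a group are different organoid lines, but the 4 BME controls hold line 682 both untreated and as the mock library. The SDs and unblocked tests count these libraries as separate.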

Additional observations from a re-analysis of the deposited data

Results flagged for a closer look

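In the 4 BME control libraries, 2 SMAD values stood far from the rest of their group. The Smad1 level of untreated line 682, 19.3 FPKM, was the highest, with a gap to the next library of 0.872 of the group's range. The Smad2 level of untreated line 889, 6.85 FPKM, was the lowest, with a gap of 0.961 of the range. Both gaps exceed Dixon's 95% critical value for 4 samples. In all, 12 values were tested, and chance flags about 1 in 20. In the dox library of the same line, Smad2 was at 7.24 FPKM.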

How the results depend on the processing

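Of 329 recomputed member differences, 315 kept direction and side of the threshold, 13 reversed and 1 newly passed. These counts hold the fit without the mock library under both of its names, as an alternative and as a library left out. With no filter a member's difference could not change, only its p-value. As no member was called at the outset, the side of the threshold could change only by a new pass. Smad3 in BME reversed to 0.019 with the mock library counted with dox, and its difference between environments to -0.059 with lines 700 and 889 only. Leaving out 1 library gave ranges that cross 0 for Smad2 in BME (-0.35 to 0.0062) and on plastic (-0.014 to 0.41), Smad3 in BME (-0.43 to 0.32), on plastic (-0.29 to 0.29) and between environments (-0.25 to 0.50), and Smad6 in BME (-0.11 to 0.43). The cause was not tested. Members called on plastic ranged from 0 to 1 and pathway genes called there from 0 to 1 when 1 library was left out, the calls being Smad4 and Id3 without the dox library of line 700. The Smad4 share differed by 8.03 to 22.3 percentage points in BME and 19.5 to 36.2 on plastic when 1 library was left out, and the share of rebuilt counts by 11.2 and 21.3. Calls over all genes ranged from 0 to 35 in BME (3 as reported) and 0 to 46 on plastic (4 as reported, 10 with a pseudocount of 0.1, 0 with no filter, 11 with limma-voom), and were 5 between environments with no filter. With the organoid line as a block, Smad7 on plastic stayed at 1.16 (limma adjusted p = 0.148) and Smad4 at 3.42 (adjusted p = 0.126), no member was called, and calls over all genes were 0 in BME and 7 on plastic. With 2 dox libraries in BME and 3 on plastic, the unpaired exact permutation tests could not go below p = 0.133 and 0.1.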

Other observations

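The palindromic element of the Smad6 window was looked up in all other genes after that window had been read. It lay in windows of 67 genes, of which 27, members left out, were measured in both tables. Of these, 1 gene (Cdip1) was higher with dox in all 5 pairs and 1 (Armc9) was lower, 3.70% each, beside 8.7% and 8.06% of all genes. The median of their mean within-pair difference was 0.04 (log2), against -0.00081 over all genes.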
